A study of Mus musculus with 6 samples.

Results

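TGF-beta signalling was followed through 10 genes in 6 libraries: the receptors Tgfbr1 and Tgfbr2, the transducers Smad2, Smad3 and Smad4, and the repressors Smad6, Smad7, Pmepa1, Ski and Skil. They were found by gene symbol, and all 10 were among the 22956 genes of the deposited table and among the 16654 genes that passed the filter on low counts. The tested mice carried floxed miR-21 alleles, the mTmG reporter, which changes colour where Cre has acted, and Myh11ERT2, an inducible Cre driven by the smooth muscle Myh11 promoter (3 libraries, miR-21 knockout). The WT mice carried mTmG and Myh11ERT2 with unfloxed miR-21 (3 libraries). All were C57B6, 30 weeks old and on a western diet for 20 weeks, and each library was labelled as smooth muscle cells of the aorta. No label says whether the replicates of a group are separate animals, so the spread between libraries may be technical. The labels do not say how far deletion went, and a Cre driven from Myh11 leaves miR-21 intact in cells that are not smooth muscle.

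TGF-beta ligands bring the type II receptor Tgfbr2 together with the type I receptor Tgfbr1, a kinase that phosphorylates Smad2 and Smad3. These join Smad4 and enter the nucleus, where Ski and Skil (SnoN) recruit corepressors to the complex and hold target genes down. Smad6, Smad7 and Pmepa1 act earlier as feedback inhibitors, and in vascular smooth muscle the pathway is known for promoting contractile genes and matrix. miR-21 is a microRNA that lowers messages whose 3′ untranslated region (3′ UTR) pairs with its seed, and several of these genes are reported targets. The comparison asks how the receptors, transducers and repressors stand in aortic smooth muscle with and without miR-21. The genes were selected on their roles and on their CPM differences between knockout and WT libraries of these same data, which were known beforehand, so those differences are given as a description. Intervals and calls printed for them come from a fit over all genes and are no independent test of the members.

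Ski and Smad7 were the 2 members with the longest match to miR-21 and, with all 6 libraries, also the 2 with the highest fold change. For Smad7 this rested on the library WT 1. Without it the log2 fold change of Smad7 was 0.20, no higher than that of Skil (0.20) and Tgfbr1 (0.22). The windows of Ski, Tgfbr1 and Tgfbr2 are shown so that the longer match can be read against the shorter ones. The mature mouse miR-21a-5p (RefSeq, GRCm38.p6, chromosome 11, 86584120 to 86584141, minus strand) is given first, with its seed, bases 2 to 8, in capitals. The target windows come from GENCODE M21 (GRCm38, the assembly of mm10), with the letters that match the seed in capitals. In Ski the A that follows them is also in capitals. All windows lie in the 3′ UTR of the principal transcript and are written 5′ to 3′ on the strand of the message.
mmu-miR-21a-5p: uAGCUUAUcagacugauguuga
Ski, chr4:155157036-155157065, minus strand: ttctaacatttacacttttgttATAAGCTA
Tgfbr1, chr4:47412712-47412741, plus strand: ttacagttgtatcacctgcttaaATAAGCT
Tgfbr2, chr9:116090136-116090165, minus strand: tatgccttggagactgtcatggcATAAGCT

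The seed site is ATAAGCT on the message strand, and the 8-letter site ATAAGCTA adds the A that lies opposite the first base of the microRNA. The seed site was held by 4 of the 10 members, 1 time each. Ski held the 8-letter form 298 bases into a 3′ UTR of 3266 bases, and Smad7 held it 1165 bases into one of 1570 bases (chromosome 18, 75395530 to 75395537). Tgfbr1 and Tgfbr2 held the 7-letter form, at bases 1958 of 4154 and 236 of 1449. Of all 15269 genes of the table with a 3′ UTR, 7.06% held the seed site. Long 3′ UTRs hold it more often: among genes whose 3′ UTR was within 25% of the length of Ski's, 15.3% held it, and 7.38% did for Smad7, 19.4% for Tgfbr1 and 6.27% for Tgfbr2. Smad2, Smad3, Smad4, Smad6, Pmepa1 and Skil had no ATAAGCT in the 3′ UTR of their principal transcript. Tgfbr1 and Smad2 also held 1 shorter match each, TAAGCTA without the preceding A.

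Smooth muscle markers had the largest sum of the marker lists in every library, and adventitial fibroblast markers came second. The summed level of 8 smooth muscle markers was 28866 to 37709 CPM (counts relative to the library total, scaled by TMM, a normalization of library sizes) in the knockout and 24025 to 35940 CPM in WT, and all 8 were higher on average in the knockout. Library totals were 37787465 to 154384307 estimated counts. Markers of adventitial fibroblasts split the libraries otherwise than the genotype. Their 8-gene sum was 5545, 1384 and 1920 CPM in knockout 1, 2 and 3, against 6823, 3050 and 6048 CPM in WT 1, 2 and 3, with 7 of 8 lower in the knockout and Lum and Dcn leading the sum. Knockout 1 thus lay with WT 1 and WT 3. The 7-gene endothelial sum was 61.0 to 71.0 CPM in the knockout and 61.0 to 68.3 CPM in WT, almost all of it Pecam1, with 5 of 7 higher in the knockout. Cdh5 and Kdr stayed below 1 CPM in every library, and Tie1 and Tek were at 0 in WT 2. The 8-gene macrophage and leukocyte sum was 3.95 to 21.0 CPM in the knockout and 3.53 to 20.3 CPM in WT, with 4 of 5 tested genes higher in the knockout. Cardiac muscle markers summed to 46.8 to 75.3 CPM in the knockout and 41.3 to 58.8 CPM in WT, and nerve markers to 1.86 to 4.83 CPM in the knockout and 1.42 to 2.97 CPM in WT. In bulk samples, fewer cells of a type and less RNA per cell cannot be told apart.

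The repressor Ski was the member that separated the genotypes most evenly. Ski (chromosome 4, 155154075 to 155222592, minus strand) was at 459, 456 and 451 CPM in knockout 1, 2 and 3, against 354, 347 and 372 CPM in WT 1, 2 and 3. The 3 knockout libraries lay close together and above every WT library. The mean was 455 ± 4.10 CPM in the knockout and 358 ± 13.03 CPM in WT (SD, n = 3 each), and the knockout-over-WT log2 fold change was 0.35 ± 0.068 (SE; 95% interval 0.19 to 0.51, not adjusted for the number of genes). As a fold this is 1.27. It was 0.32 to 0.37 when each library was left out in turn. Reck, a matrix metalloproteinase inhibitor and a reported miR-21 target, had a log2 fold change of 0.67 ± 0.076 in the same fit, a larger value than that of Ski.

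**Figure D1:**
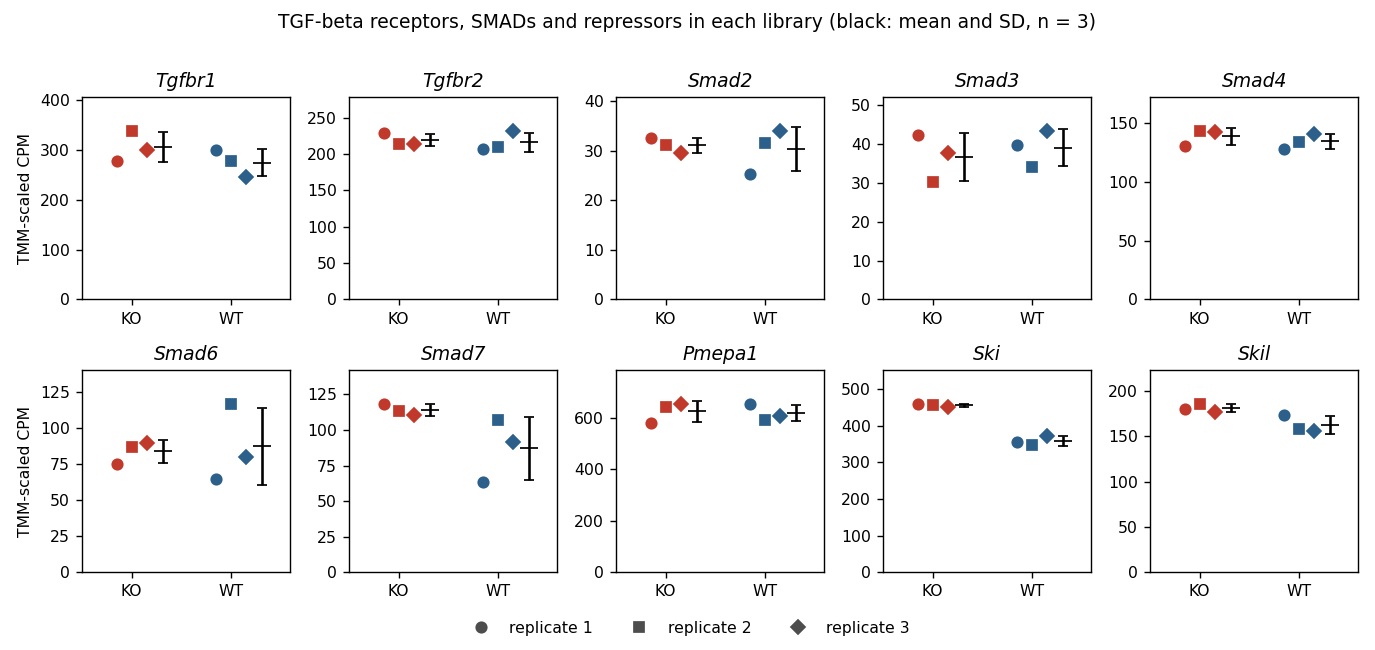
TMM-scaled CPM of each of the 10 genes in each library, with the 3 knockout (KO) libraries in red, the 3 WT libraries in blue, marker shape for the replicate number and the group mean with SD in black. Ski, Skil and Smad7 have all 3 knockout libraries above all 3 WT libraries, and relative to its mean Smad6 spreads most in WT, between 64.6 and 117 CPM.

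Skil, the paralog of Ski and itself a TGF-beta response gene, differed less. Skil (chromosome 3, 31095058 to 31122577, plus strand) was at 180.0, 186 and 177 CPM in knockout 1, 2 and 3, against 173.8, 158 and 156 CPM in WT 1, 2 and 3. The groups did not overlap, but knockout 3 and WT 1 were only a few CPM apart. The mean was 181 ± 4.37 CPM in the knockout and 163 ± 9.75 CPM in WT (SD, n = 3 each), and the log2 fold change was 0.15 ± 0.068 (SE; 95% interval -0.0076 to 0.32). The 3′ UTR of Skil is 3964 bases long and holds no seed site.

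Among the inhibitory SMADs, Smad7 was higher in every knockout library and Smad6 was not. Smad7 blocks the TGF-beta receptor and brings ubiquitin ligases to it, and Smad6 acts mainly against BMP signals. Smad7 (chromosome 18, 75367529 to 75395935, plus strand) was at 118, 113 and 111 CPM in knockout 1, 2 and 3, against 63.4, 107 and 91.3 CPM in WT 1, 2 and 3. WT 1 lay far below the others, while WT 2 came within a few CPM of knockout 3. The mean was 114.1 ± 3.94 CPM in the knockout and 87.2 ± 22.0 CPM in WT, with a log2 fold change of 0.39 ± 0.18 (SE; 95% interval -0.037 to 0.81). It was 0.20 without WT 1 and 0.56 without WT 2, so the size of the difference rests on which WT libraries are used.

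Smad6 (chromosome 9, 63953076 to 64022059, minus strand) was at 74.8, 86.6 and 89.6 CPM in knockout 1, 2 and 3, against 64.6, 117 and 80.0 CPM in WT 1, 2 and 3. WT held both the lowest and the highest library. The log2 fold change was -0.057 ± 0.21 (SE), and it was -0.23 without WT 1 and 0.21 without WT 2. Of the 10 members Smad6 had the widest interval, -0.57 to 0.45. The smooth muscle marker sum had nearly the same order of libraries as Smad6: both had WT 1 lowest, then knockout 1, then WT 3, with WT 2, knockout 2 and knockout 3 at the top. Smad7 was also lowest in WT 1, but its highest library was knockout 1, the second lowest by the smooth muscle sum. The part of cell composition in these values was not tested. Taken as a ratio within each library, log2 of Smad6 CPM over Smad7 CPM was -0.66, -0.39 and -0.30 in knockout 1, 2 and 3, against 0.028, 0.13 and -0.19 in WT 1, 2 and 3. Knockout ratios lay below WT ratios, with knockout 3 and WT 3 nearest to each other, and Smad7 alone already separated the libraries. Of the other ratios taken, Ski over Skil also separated them, while Tgfbr1 over Tgfbr2 and Smad2 over Smad3 overlapped. How often other pairs of genes separate the libraries was not counted, so nothing is read from this. These CPM are not per length, so only the difference between libraries can be read.

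**Figure D2:**
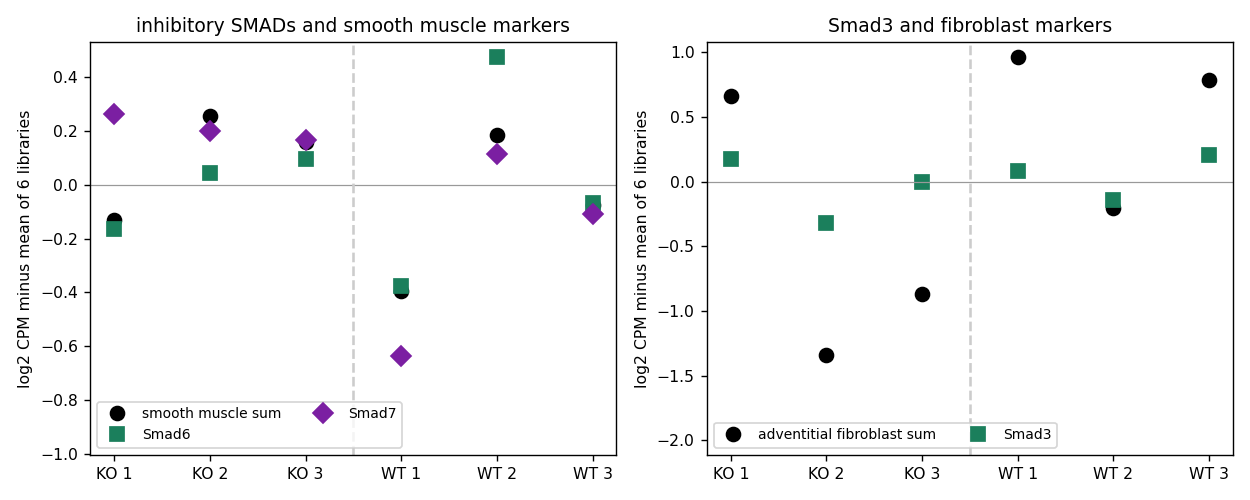
Log2 CPM minus its mean over the 6 libraries, by library, with knockout (KO) left of the dashed line and WT right of it. The left panel sets Smad6 and Smad7 beside the summed smooth muscle markers, all lowest in WT 1, and the right panel sets Smad3 beside the summed adventitial fibroblast markers, both lowest in knockout 2.

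Smad6 and Smad3 are neighbours on chromosome 9, 195 kb apart, and their libraries were ordered differently. The promoter window of Smad6 held the palindrome GTCTAGAC, a SMAD binding element. It begins 4 bases before the annotated start and runs across it. The windows reach from 250 bases before to 50 after each start (RefSeq, GRCm38.p6), and 40 bases of that of Smad6 are shown with the element in capitals because only 70 of 32851 such windows (0.213%) hold this motif on either strand.
Smad6, chr9:64022040-64022079, minus strand: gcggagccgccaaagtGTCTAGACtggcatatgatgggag
The windows of Ski, Smad3, Tgfbr1 and Tgfbr2 did not hold it, and those of Skil, Pmepa1, Smad2, Smad4 and Smad7 were not searched. The shorter box CAGAC, or GTCTG on the other strand, occurred in 49.6% of all windows and in 1 window each of Tgfbr1 and Tgfbr2. A match is a sequence only and says nothing of binding in these cells.

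Pmepa1 is a membrane protein that binds SMADs and keeps them from the receptor, and its message is a known TGF-beta target. Pmepa1 (chromosome 2, 173224458 to 173276533, minus strand) was at 581, 641 and 655 CPM in knockout 1, 2 and 3, against 655, 594 and 609 CPM in WT 1, 2 and 3. The groups overlapped throughout, with means of 625 ± 39.2 CPM in the knockout and 619 ± 31.9 CPM in WT (SD, n = 3 each). The log2 fold change was 0.015 ± 0.086 (SE; 95% interval -0.19 to 0.22).

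The receptors overlapped between the genotypes, although both hold a 7-letter seed site. Tgfbr1 (chromosome 4, 47353222 to 47414931, plus strand) was at 277, 337 and 299 CPM in knockout 1, 2 and 3, against 299, 276 and 246 CPM in WT 1, 2 and 3. Knockout 1 was level with WT 2. The log2 fold change of Tgfbr1 was 0.15 ± 0.11 (SE; 95% interval -0.098 to 0.41), and it was 0.075 without knockout 2 and 0.22 without WT 1. Tgfbr2 (chromosome 9, 116084293 to 116175360, minus strand) was at 229, 214 and 214 CPM in knockout 1, 2 and 3, against 207, 209 and 231 CPM in WT 1, 2 and 3. Its highest library was WT 3 and its lowest WT 1. The log2 fold change of Tgfbr2 was 0.020 ± 0.074 (SE; 95% interval -0.15 to 0.19). An interval that includes 0 does not show that the receptors were equal in the genotypes.

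The transducers also overlapped between the genotypes. Smad4, the common partner, was at 129.98, 143 and 142 CPM in knockout 1, 2 and 3, against 128, 134 and 141 CPM in WT 1, 2 and 3, with a log2 fold change of 0.044 ± 0.069 (SE; 95% interval -0.12 to 0.21). Smad2 was at 32.6, 31.2 and 29.5 CPM in knockout 1, 2 and 3, against 25.3, 31.5 and 33.9 CPM in WT 1, 2 and 3, with a log2 fold change of 0.036 ± 0.11. The knockout libraries of Smad2 lay inside the WT range. Smad3 was at 42.5, 30.2 and 37.6 CPM in knockout 1, 2 and 3, against 39.8, 34.0 and 43.3 CPM in WT 1, 2 and 3, with a log2 fold change of -0.090 ± 0.14. The 3 libraries with the most Smad3, WT 3, knockout 1 and WT 1, were the same 3 that had the highest adventitial fibroblast sums, and knockout 2 was lowest in both. Whether fibroblast RNA bears on the Smad3 values was not tested.

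**Figure D3:**
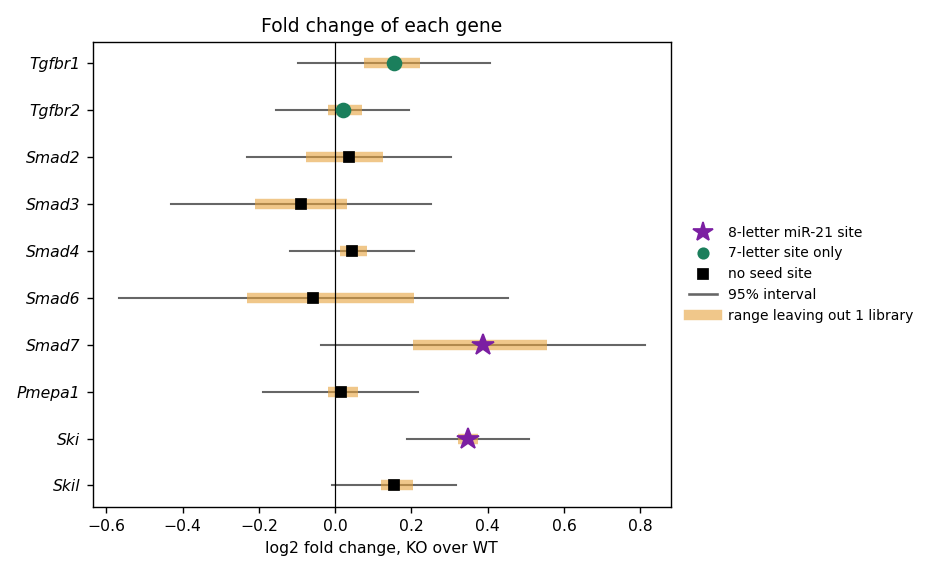
Log2 fold change, knockout (KO) over WT, of each gene, with the 95% interval of the edgeR fit as a thin line and the range over fits that leave out 1 library as a broad band. Marker shape gives the miR-21 site in the 3′ UTR. The 2 genes with the 8-letter site, Ski and Smad7, are at 0.35 and 0.39, and the other 8 lie between -0.090 and 0.15. Without WT 1, Smad7 is at 0.20 and Tgfbr1 at 0.22.

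Taken as a list, 8 of the 10 members had a fold change above 0, where 49.4% of all genes tested did, and the count was 6 to 8 when each library was left out in turn. Their median log2 fold change was 0.040, against -0.0022 for all 16654 genes. For 3 members, Ski, Skil and Smad7, the lowest knockout library exceeded the highest WT library, as for 6.48% of all genes tested, and for 0 members the order was the opposite, as for 5.6%. No member passed a Benjamini-Hochberg adjusted p of 0.05 in edgeR's quasi-likelihood test, where 0% of all genes passed. The smallest adjusted p of any gene was 0.217. At an unadjusted p under 0.05 the fit had 1 member higher, Ski, and 3.95% of all genes higher, and 0 members lower and 2.01% of all genes lower. With DESeq2 the adjusted p was under 0.05 for 61 genes higher and 12 lower (0.374% and 0.0735% of the 16324 genes given one). Ski was the 1 member among those called. As the members were chosen with this contrast known, nothing is read from these counts. By site, the fold changes were 0.35 and 0.39 for the 2 genes with the 8-letter site and 0.020 and 0.15 for the 2 with the 7-letter site alone. The 6 genes with no seed site ranged from -0.090 to 0.15. Without WT 1, Smad7 was at 0.20, Tgfbr1 at 0.22 and Skil, which has no seed site, at 0.20.

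The members differed in level far more than the genotypes did. Per kilobase of the principal transcript (RPKM from TMM-scaled counts), Pmepa1 had the highest level, 137.8 ± 8.64 RPKM in the knockout and 136 ± 7.03 RPKM in WT (SD, n = 3 each). Ski came next with 82.4 ± 0.742 RPKM in the knockout and 64.8 ± 2.36 RPKM in WT, and Tgfbr2 followed with 63.0 ± 2.48 RPKM in the knockout and 62.1 ± 3.88 RPKM in WT. Ski lay above Tgfbr2 in each of the 6 libraries, although their ranges over the WT libraries overlapped. Tgfbr1 had 52.9 ± 5.26 RPKM in the knockout and 47.6 ± 4.63 RPKM in WT, and Smad4 had 40.9 ± 2.15 RPKM in the knockout and 39.6 ± 1.86 RPKM in WT. Smad6, Skil and Smad7 formed a cluster whose ranges overlapped in WT, with 28.2, 26.9 and 26.7 RPKM in the knockout and 29.3, 24.2 and 20.4 RPKM in WT. The receptor-regulated Smad3 had 7.22 ± 1.21 RPKM in the knockout and 7.68 ± 0.924 RPKM in WT. Smad2 was lowest with 3.84 ± 0.190 RPKM in the knockout and 3.74 ± 0.550 RPKM in WT. With the length of all annotated exons, an alternative chosen after seeing the data, Tgfbr2 stood at 26.7 RPKM in the knockout, below Smad4, and Skil at 18.7 RPKM. Pmepa1 and Ski stayed first and second and Smad3 and Smad2 last.

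**Figure D4:**
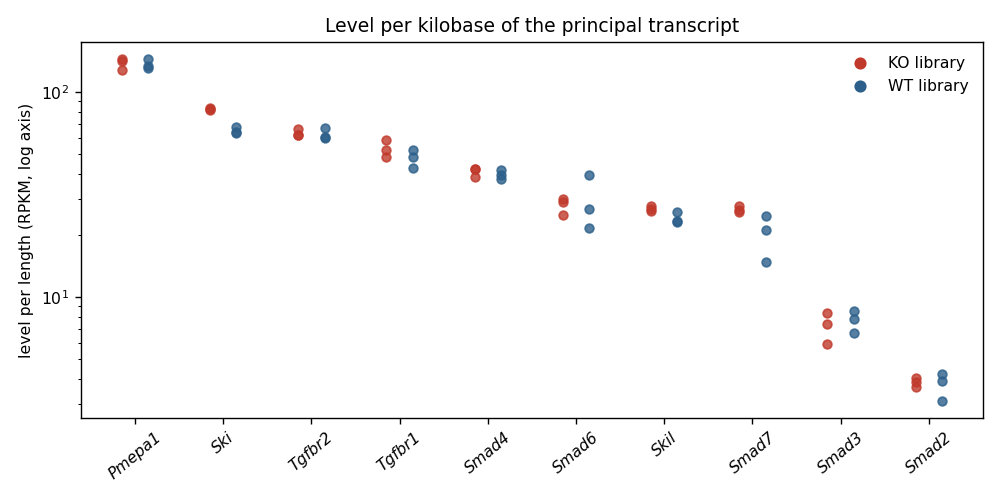
Level of each gene in each library in RPKM, per kilobase of the principal transcript, on a log axis, with knockout (KO) libraries in red left of WT libraries in blue. Pmepa1 lies highest at 128 to 144 RPKM and Smad2 lowest at 3.13 to 4.20 RPKM.

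The spread between replicates also differed by gene. The coefficient of variation of Ski was 0.901% in the knockout and 3.64% in WT, that of Smad7 3.45% in the knockout and 25.2% in WT, and that of Smad6 9.34% in the knockout and 30.7% in WT. Tgfbr2, Smad4 and Pmepa1 varied least over all 6 libraries, with a highest-to-lowest ratio of 1.12, 1.12 and 1.13. Smad6 and Smad7 varied most, with ratios of 1.80 and 1.87. Among the 10487 genes with a mean log2 CPM of at least 2, the profiles most like that of Ski over the 6 libraries, by root mean square difference of centred log2 CPM, were those of Snrnp200, a spliceosome helicase, Abca2, a lipid transporter, Klhl15, Pcnx and Hectd4, at 0.035 to 0.038. The nearest to Skil were Erc1, Luc7l2, Atxn7, Klf7 and Homez, at 0.023 to 0.031. With 6 points per gene such likeness describes these libraries only.

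The rest of the pathway was taken as 76 genes in 8 role lists, of which 74 were in the table and 73 were tested. None passed the adjusted threshold in edgeR or in DESeq2, and at an unadjusted edgeR p under 0.05 there were 8 higher in the knockout and 0 lower, against 3.95% and 2.01% of all genes. In all, 47 of 73 were above 0, with a median log2 fold change of 0.053. These lists were chosen with earlier results of the series known. Among them were Smurf1 and Usp11, Sin3a, Ep300, Crebbp and Sp1, and the receptor-associated Tgfbrap1.

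Partners of Ski and of the SMAD complex were among those genes. The coactivator Ep300 was at 56.1, 59.6 and 55.4 CPM in knockout 1, 2 and 3, against 48.5, 49.2 and 48.4 CPM in WT 1, 2 and 3 (log2 fold change 0.23 ± 0.055). Every knockout library lay above every WT library for Ep300 and for the corepressor scaffold Sin3a (0.23 ± 0.092). Of the 73 other pathway genes tested, 10 had this order and 1 the opposite, where 6.48% and 5.6% of all genes tested did. The transcription factor Sp1 had 0.31 ± 0.11 and the coactivator Crebbp 0.19 ± 0.078, both with overlapping libraries. The corepressor Ncor1 had 0.10 ± 0.071 and Tgif1, another SMAD corepressor, -0.18 ± 0.23. Ldlrad4, a relative of Pmepa1, had 0.11 ± 0.10.

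**Figure D5:**
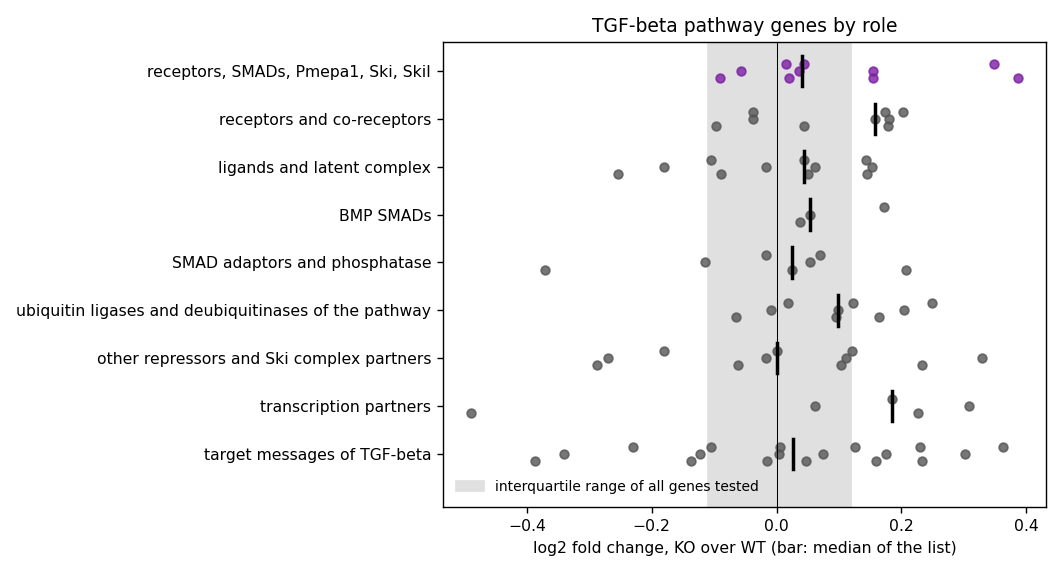
Log2 fold change, knockout (KO) over WT, of the 10 genes and of the 73 other pathway genes tested, by role, with 1 point a gene, a bar for the median of each list and grey for the interquartile range of all genes tested, -0.11 to 0.12. Ski and Smad7 lie highest in the top row, and target messages lie on both sides of 0.

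Of the 9 ubiquitin ligases and deubiquitinases, 7 were above 0, where 49.4% of all genes tested were, and 2 were higher at an unadjusted p under 0.05, where 3.95% of all genes were. Smurf1, which Smad7 guides to the receptor, was at 77.6, 73.3 and 76.9 CPM in knockout 1, 2 and 3, against 64.2, 67.7 and 65.8 CPM in WT 1, 2 and 3 (0.21 ± 0.055). Smurf2 had 0.12 ± 0.057, and Usp11, a deubiquitinase, 0.25 ± 0.089. For these 3 genes every knockout library lay above every WT library, as for 6.48% of all genes tested.

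Of the receptors, BMP SMADs and ligands, 0 had an unadjusted edgeR p under 0.05, where 3.95% of all genes tested were higher and 2.01% lower. In lists this short a count of 0 is near those shares, so nothing is read from it. The median log2 fold change of the receptors and co-receptors was 0.16, above the upper quartile of all genes (0.12). It was 0.053 for the BMP SMADs and 0.043 for the ligands and latent complex, both within the interquartile range. Of 9 receptors and co-receptors 6 were above 0, with Tgfbr3 at 0.16 ± 0.100, Eng at 0.18 ± 0.12 and Acvrl1 at -0.038 ± 0.065. All 3 BMP SMADs were above 0, with Smad1 at 0.037 ± 0.077 and Smad5 at 0.053 ± 0.16. Of 11 ligand and latent complex genes 6 were above 0. Tgfb1 had -0.18 ± 0.26, Tgfb2 0.061 ± 0.12, Tgfb3 0.15 ± 0.069 and the latent binding protein Ltbp1 0.14 ± 0.12. Of the 7 adaptors 4 were above 0, Tgfbrap1 at 0.21 ± 0.076 and the SMAD anchor Zfyve9 at 0.025 ± 0.11.

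Target messages of TGF-beta lay on both sides of 0. Of 18, 11 were above 0, where 49.4% of all genes tested were, with a median of 0.027. None had an unadjusted edgeR p under 0.05, where 3.95% of all genes were higher and 2.01% lower. For 18 genes that count is near those shares, so nothing is read from it. Ctgf (Ccn2), a matrix-associated signalling protein, had a log2 fold change of 0.13 ± 0.27, Tgfbi 0.23 ± 0.54, Klf10 -0.11 ± 0.31 and Fn1 0.0058 ± 0.33. The 3 libraries with the most Fn1, knockout 1, WT 1 and WT 3, were those with the highest fibroblast sums. Ctgf was highest in WT 1, but in WT 3 it was at 5232 CPM. That was below its 6298 and 6293 CPM in knockout 2 and 3, the 2 libraries with the lowest fibroblast sums. Whether fibroblast RNA bears on these values was not tested.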

How the data were processed

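RNA from frozen tissue was extracted with Trizol and made into libraries with an Illumina TruSeq kit, per the labels' protocols. The authors deposited 1 table, and its values are estimated counts per gene, made before deposit without normalization to library size. The submitters' processing notes name mm10, STAR 2.6 and DESeq2, with no role given, and which tool made the counts is not given in the sources used here. Each column was assigned through its sample code, which the labels also give, and 0 per-sample columns had no sample.

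Counts were rounded, filtered with filterByExpr, scaled by TMM and tested with edgeR 4.0.16 (robust quasi-likelihood, two-sided, Benjamini-Hochberg) in R 4.3.3, tested on simulated data first. Standard errors and 95% intervals come from that fit. Alternatives used DESeq2 1.42.0, limma 3.58.1, other scalings and filters, the replicate block and leaving out each library. The intervals cover the spread between 6 libraries, with a median standard error of 0.137 on the log2 scale over all genes. Principal transcripts, 3′ UTRs and coordinates are from GENCODE M21, matched by position for 21548 genes and by symbol for 1347, and 61 genes did not match. No annotated gene shares exon bases with a member. Of 6 adipocyte markers only Ucp1 was in the deposited table, and it did not pass the filter on low counts, so that list was left out.

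The members and lists were chosen with earlier results of these data known. Named genes were all members, Reck, 20 pathway genes set by role, pathway genes at an unadjusted p under 0.05 (2 genes that this rule names are not reported here), and the 5 profiles nearest to Ski and to Skil, predicted genes left out. Figures used Python 3.11.15 and matplotlib 3.10.9.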

Additional observations from a re-analysis of the deposited data

How the results depend on the processing

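Of 130 member fold changes under 13 alternatives, 116 kept their direction and their side of the adjusted threshold, 13 changed sign and 1, Ski in DESeq2 (log2 fold change 0.35), passed it. The sign changes were Smad2 at -0.042 with limma-voom weights, at -0.0031 without knockout 1 and at -0.076 without WT 1; Tgfbr2 at -0.018 without knockout 1, -0.010 without WT 1 and -0.0060 without WT 2; Smad6 at 0.013 without knockout 1 and 0.21 without WT 2; Smad3 at 0.032 without knockout 2; and Pmepa1 at -0.0037, -0.020, -0.019 and -0.00072 without knockout 2, knockout 3, WT 2 and WT 3. Leaving out 1 library moved Tgfbr2 up to 0.070, Smad2 up to 0.13, Smad3 down to -0.21, Smad6 down to -0.23 and Pmepa1 up to 0.060. The cause was not tested. The median of the members was 0.028 with upper-quartile factors and 0.034 to 0.096 without 1 library. DESeq2 called 73 genes in all, with 1 member, where edgeR called 0. The replicate block called 1 gene, no member. Without 1 library 0 to 1 genes were called. Same-numbered libraries deviated together for numbers 1 and 2 (correlation 0.29 and 0.32) and not for number 3 (-0.026). Differently numbered libraries were not compared, so these values cannot decide whether the numbers are pairs. The main fit did not take them as pairs. The longest 3′ UTR gave the same 4 members with a site. The lowest count of any member in a library was 960, of Smad2 in WT 1, and what depth limits was not tested.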

Other observations

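Of all 15269 genes of the table with a 3′ UTR, 7.06% held the miR-21 seed site in that of the principal transcript. Among the other pathway genes, 9 of the 73 tested held it, and no share at like 3′ UTR length was taken for them. The 8-letter site was in 3 of them, the BMP receptor gene Bmpr2 with a log2 fold change, knockout over WT, of 0.17 ± 0.089 (SE), the integrin gene Itgav with 0.051 ± 0.10 and the matrix gene Tgfbi with 0.23 ± 0.54. The 7-letter site alone was in 6, of which 4 were above 0: Rnf111, a ubiquitin ligase that targets Ski, Skil and Smad7, with 0.16 ± 0.070, Trim33 with 0.098 ± 0.078, Usp15 with 0.095 ± 0.065 and Ltbp2 with 0.043 ± 0.53. Wwp1 was at -0.065 ± 0.061 and Postn at -0.016 ± 0.16. For the remaining 64 genes the median was 0.051, with 40 above 0. Median 3′ UTR length was 3581 bases for the 8-letter genes, 2486 for the 7-letter genes and 1210.5 for the rest, and no value was corrected for it. These are descriptions, with no test of the difference between the groups of genes.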
